A study of Mus musculus with 8 samples.

Results

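The genes described here encode the pore-forming and auxiliary subunits of voltage-gated calcium channels and voltage-gated sodium channels, together with the HCN channels. They were chosen by gene name as the array design gives it: the pore-forming calcium channel genes of the Cacna1 family, the auxiliary Cacna2d and Cacnb genes, the Scn genes ending in a (pore) or b (auxiliary subunit), and the Hcn genes. The rule found 35 genes of the 34836 gene names on the array. The 32 genes described here are carried by 52 of 55681 probes and comprise 10 Cacna1, 4 Cacna2d, 4 Cacnb, 8 pore-forming Scn, 3 auxiliary Scn and 3 Hcn genes. One sodium channel gene, named Scn2a1 on the array, lies outside the rule.

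The arrays measured RNA of pooled neurons from the dorsomedial (DMH), the ventromedial (VMH) and the arcuate (Arc) nucleus of the mouse hypothalamus, with 3 DMH, 3 VMH and 2 Arc samples. All mice were females of 2 months that carried an Nkx2-1-CreERT2 driver and a ROSA-loxSTOPlox-ZsGreen1 reporter and had received tamoxifen, and the green cells were cut out by laser. The cut was aimed at cells in which the Nkx2-1 gene drove the recombinase when tamoxifen was given, mixed within each nucleus. Every group carries the same alleles. Of 12 markers each for astrocytes, oligodendrocytes and microglia, 10 were well above background on all arrays. Whether other cells came along was not tested. The labels tie no sample to an animal, so the p-values reflect only how far these samples spread, and that spread may be technical. In pooled cells, fewer cells of a type and less RNA per cell cannot be told apart. The study asked which genes mark the labelled neurons of 1 nucleus against the others.

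Voltage-gated calcium and sodium channels open when the membrane depolarizes. Sodium channels carry the upstroke of the action potential, high-voltage-activated calcium channels couple spikes to transmitter release and gene expression, and low-voltage-activated (T-type) calcium channels support rebound bursts. HCN channels open on hyperpolarization and carry a depolarizing current that shapes pacemaking. Hypothalamic neurons of these nuclei regulate feeding, body temperature and reproduction, and many of them fire spontaneously or in bursts.

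Levels are log2 values scaled to the array: the processed signal is divided by its 75th percentile, so that 0 is the signal of a probe at that percentile. Probes stayed in when all arrays of some nucleus, at least 1, read them well above background, and the brightest kept probe stood for its gene. Of the 32 genes, 30 passed. Each probe has its own affinity, so levels are compared between nuclei for a probe and never between genes. The arrays resembled each other closely, with correlations across all genes between 0.940 and 0.964 for samples of the same nucleus and between 0.905 and 0.951 for samples of different nuclei. Marker genes of each nucleus separated the samples: the summed linear signal of 4 VMH markers was 27.2 to 33.9 times the array percentile in VMH, 5.10 to 5.81 in DMH and 5.90 to 6.72 in Arc, and that of 7 Arc markers was 129 to 166 in Arc against 5.06 to 6.22 in DMH and 4.12 to 6.30 in VMH. The 4 DMH markers summed to 16.7 to 18.1 in DMH, 0.381 to 0.532 in VMH and 1.13 to 1.97 in Arc. Neuronal markers summed to 190 to 229 in DMH, 257 to 307 in VMH and 277 to 287 in Arc, with all 8 well above background on every array. Most of that sum is Snap25, whose probe holds a simple repeat, and the other 7 summed to 71.0 to 76.1 in DMH, 105 to 106 in VMH and 72.0 to 75.02 in Arc. Nkx2-1 itself was at 1.21 ± 0.08 in DMH (SD, n = 3), 1.12 ± 0.06 in VMH (SD, n = 3) and 0.20 ± 0.20 in Arc (SD, n = 2), and Arc lay 0.97 ± 0.17 (SE) below the mean of the other nuclei with an adjusted p of 0.0683 by limma.

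**Figure D1:**
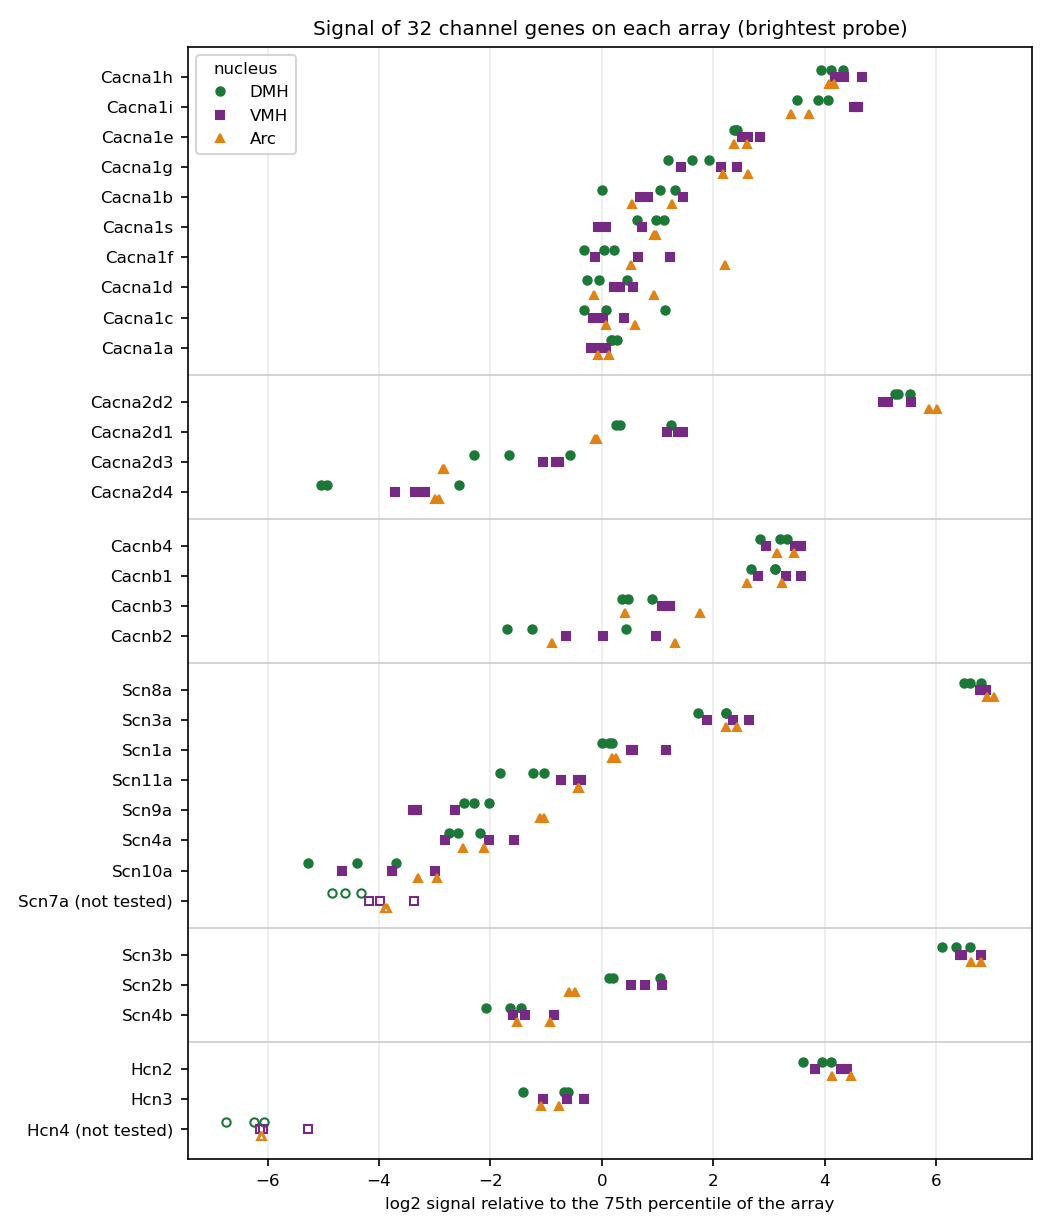
Level (log2, scaled to the 75th percentile of the array) of the brightest probe of each of the 32 channel genes on each of the 8 arrays, grouped by gene family. Filled symbols are the 30 genes tested and open symbols the 2 that were not. For most genes the nuclei overlap or lie close together, while the Scn9a points separate by nucleus.

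The sodium channel gene Scn9a was lower in VMH than in Arc, and of the 30 channel genes tested no other passed the threshold in any of the 6 comparisons. Scn9a encodes a tetrodotoxin-sensitive channel known from pain-sensing neurons, where it boosts small depolarizations, and it was 4.12-fold lower in VMH than in Arc. In limma's test with Benjamini-Hochberg adjustment over all genes, VMH against Arc thus gave 1 of 30 channel genes, with 0 higher and 1 lower, where 0.977% of all genes tested were called (0.66% higher and 0.317% lower). VMH against the mean of the other nuclei also called Scn9a lower (background 1.34%), and Arc against the mean of DMH and VMH called it higher (background 0.613%).

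Scn9a has 1 probe on the array, and the calls rest on it. The first bases of the probe are printed here to show what was measured. It lies at chr2:66321218-66321277 (mm9 of the array design, minus strand). By the repeat score explained below, the whole probe ranks at the 50th percentile of all probes. Capitals were set only in probes chosen for their repeats, so none are set here:
Scn9a: gaattgtgcatgtaactctacagggaataa

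Scn9a was at -2.48, -2.30 and -2.02 in DMH. It was at -3.32, -3.40 and -2.64 in VMH, and at -1.05 and -1.10 in Arc. Both Arc samples lay above all DMH samples and these above all VMH samples. All 8 arrays were well above background. VMH against Arc gave -2.04 ± 0.28 (SE; adjusted p = 0.0224 by limma), VMH against the mean of the others -1.45 ± 0.23 (adjusted p = 0.0298 by limma) and Arc against the mean of the others 1.62 ± 0.25 (adjusted p = 0.0454 by limma). DMH was 0.85 above VMH and 1.19 below Arc (adjusted p 0.197 and 0.121 by limma). VMH against Arc was past the threshold in 15 of 20 alternatives, VMH against the mean of the others in 11 and Arc against the mean of the others in 8. With the replicate number as a block, Arc against the mean of the others had an adjusted p of 0.0610 by limma. The VMH against Arc call was lost with the slide row as a block (adjusted p 0.0518 by limma) and without VMH replicate 1 or 2 or either Arc replicate (0.0688 to 0.0863), and normexp background correction reduced the difference to -1.30. Of the arrays left out in turn, only without VMH replicate 3 did the other 2 calls of Scn9a hold; with filter and probes held as reported, VMH against the mean of the others also passed without DMH replicate 1 (adjusted p 0.0491 by limma).

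Sums of markers of some other cell types differed between nuclei as well. The summed signal of 7 tanycyte and ependymal markers was 2.21 to 3.71 in DMH, 3.82 to 4.63 in VMH and 4.76 to 5.47 in Arc, and 5 of the 7 were well above background on all arrays. The members did not all follow this order. Col23a1 averaged -0.61 in DMH, 0.87 in VMH and 1.55 in Arc, whereas Ccdc153 averaged 0.72, 0.48 and -0.19, and Crym was highest in VMH (-1.16). The summed signal of 9 endothelial and mural markers was 3.41 to 5.16 in DMH, 4.34 to 5.41 in VMH and 5.69 to 6.50 in Arc, with 7 well above background throughout. DMH and VMH overlapped there, and 0 of these 9 genes passed the threshold in any comparison. Of the 7 tanycyte and ependymal markers 2 passed it in at least 1 comparison, beside 2.24% of all genes. Of 12 markers each, 1 astrocyte, 0 oligodendrocyte and 0 microglial markers did. The sums of astrocyte markers overlapped between nuclei (50.7 to 61.1 in DMH, 55.7 to 68.9 in VMH and 53.5 to 61.4 in Arc), but single members differed. Most of that sum is Aldoc, which averaged 5.17 in DMH, 5.48 in VMH and 5.43 in Arc and was lowest in all DMH samples. Gjb6, Slc1a3 and S100b were higher in all DMH samples than in all others, with Gjb6 averaging 0.48, -0.46 and -0.95. The other astrocyte members overlapped. Oligodendrocyte markers were at 18.1 to 25.1 in DMH, 22.9 to 33.9 in VMH and 13.8 to 22.2 in Arc, and Opalin, a marker of mature oligodendrocytes, was never well above background. The part of these cells in the Scn9a differences was not tested.

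**Figure D2:**
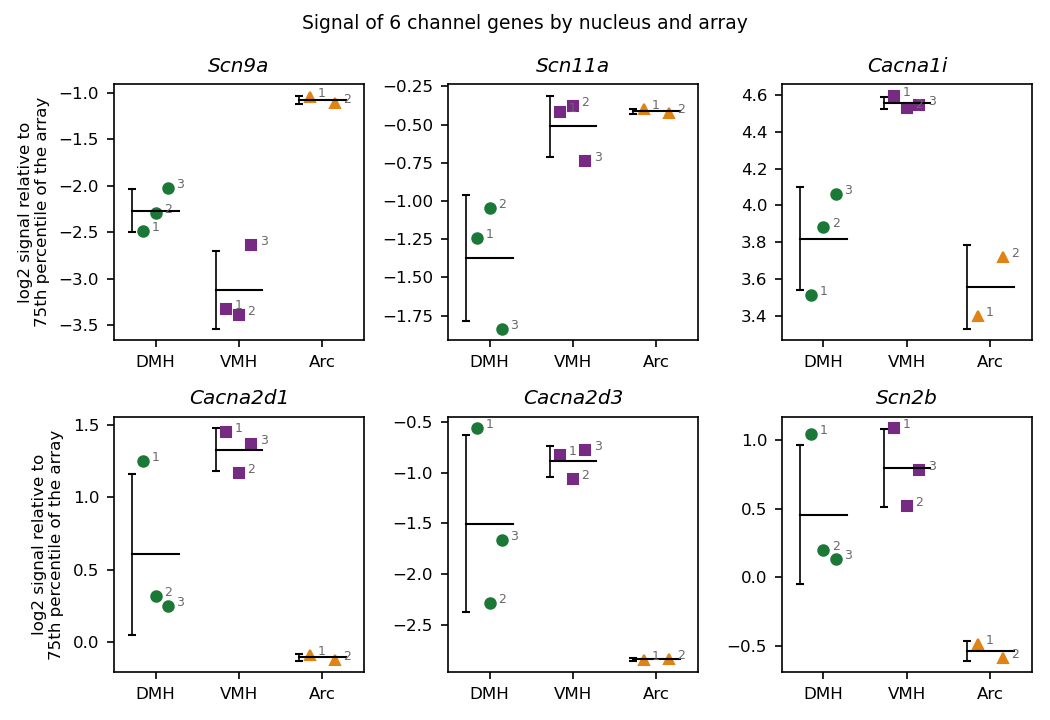
Level (log2, scaled to the 75th percentile of the array) of 6 channel genes, with a point for each array (numbers are replicates), a horizontal line at the mean of the nucleus and a bar of 1 SD to either side (n = 3, 3 and 2). Scn9a is highest in Arc and lowest in VMH, Scn11a is lowest in DMH, and replicate 1 of DMH lies near the VMH samples for Cacna2d1, Cacna2d3 and Scn2b.

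The other pore-forming sodium channel genes described here did not pass the threshold. Scn1a, Scn3a and Scn8a encode the channels typical of central neurons, Scn4a the skeletal muscle channel, and Scn10a and Scn11a channels known from sensory neurons. Scn11a was at -1.24, -1.05 and -1.84 in DMH, -0.42, -0.38 and -0.74 in VMH and -0.40 and -0.43 in Arc. All DMH samples lay below all others, by 0.91 ± 0.22 (SE) against their mean, with an adjusted p of 0.136 by limma. It was the only one of the 30 channel genes with an unadjusted p under 0.05 by limma for DMH against the mean of the others. At that level stood 16.3% of all genes. After adjustment the comparison called none of the channel genes, against 0.842% of all genes. Scn1a was at 0.17, 0.00 and 0.13 in DMH, 1.15, 0.53 and 0.55 in VMH and 0.26 and 0.19 in Arc, and VMH lay above all other samples, by 0.58 (adjusted p = 0.262 by limma). A further Scn1a probe did not separate VMH, though VMH averaged 0.50 above the others (adjusted p = 0.691 by limma). On it DMH replicate 3 was at 0.41, above VMH replicates 1 and 2 (0.14 and -0.0002), and VMH replicate 3 had no value. Scn10a was dim, well above background on 1 of 3 DMH, 2 of 3 VMH and both Arc arrays, so that it entered the test through Arc alone. It was at -5.28, -3.69 and -4.39 in DMH, -3.77, -4.67 and -2.99 in VMH and -2.96 and -3.30 in Arc, and no difference is given. Scn1a, Scn3a, Scn7a and Scn9a lie together on chromosome 2, and of these only Scn9a was called. Scn7a, a sodium-sensing relative, was well above background on 1 DMH, 1 VMH and no Arc array and was not tested.

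The auxiliary sodium channel genes encode membrane proteins that modulate gating and cell adhesion. Scn2b was at 1.04, 0.20 and 0.13 in DMH, 1.08, 0.52 and 0.78 in VMH and -0.48 and -0.59 in Arc, so that both Arc samples lay below all 6 others. The difference of Arc from their mean was -1.16 ± 0.29 (SE; adjusted p = 0.139 by limma). Scn4b, a neighbour of Scn2b on chromosome 9, did not follow it: DMH lay 0.47 below the mean of the others (adjusted p = 0.416 by limma), and VMH and Arc averaged -1.28 ± 0.38 and -1.23 ± 0.42 (SD). Scn3b was at 6.11, 6.36 and 6.62 in DMH, 6.43, 6.47 and 6.81 in VMH and 6.63 and 6.82 in Arc, read by a probe that holds a simple repeat. DMH lay 0.36 below Arc (adjusted p = 0.492 by limma), and under quantile normalization the difference turned to 0.11.

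None of the 10 pore-forming calcium channel genes passed the threshold in any comparison. Cacna1i, a T-type channel of the brain, came nearest. It was at 3.51, 3.88 and 4.06 in DMH, 4.59, 4.53 and 4.55 in VMH and 3.40 and 3.72 in Arc, and all VMH samples lay above all others. VMH was 0.87 ± 0.19 (SE) above the mean of the others with an adjusted p of 0.0862 by limma, and it passed under normexp background correction (adjusted p 0.0305) and a trended prior (0.0242), both by limma. A further Cacna1i probe gave another order, with 1.65, 2.12 and 2.41 in DMH, 2.24, 2.71 and 2.58 in VMH and 2.92 and 2.91 in Arc. Cacna1s, which is the skeletal muscle channel, was lower in VMH by 0.69 (adjusted p = 0.258 by limma), with 1.11, 0.98 and 0.63 in DMH, -0.08, 0.72 and 0.08 in VMH and 0.94 and 0.97 in Arc. A further Cacna1s probe had VMH 0.08 above the mean of the others, and gave -0.42 for DMH against VMH where the brightest gave 0.66. Cacna1f, known from the retina, was at -0.32, 0.04 and 0.22 in DMH, -0.13, 1.23 and 0.65 in VMH and 0.53 and 2.21 in Arc, and DMH was 1.39 below Arc (adjusted p = 0.265 by limma). That difference rests on Arc replicate 2: it was -0.55 without it and -2.23 without Arc replicate 1.

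The remaining pore-forming genes are the P/Q-type Cacna1a, the N-type Cacna1b, the L-type Cacna1c and Cacna1d, the R-type Cacna1e and the T-type Cacna1g and Cacna1h. Their differences between VMH and Arc ran from -0.40 for Cacna1g to 0.28 for Cacna1h, with adjusted p of 0.640 or more by limma. The presynaptic genes Cacna1a and Cacna1b differed by -0.08 and 0.09 between VMH and Arc, with 95% intervals of -0.54 to 0.37 and -0.94 to 1.12.

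The Cacna2d genes encode auxiliary subunits that raise the surface density of calcium channels and bind gabapentin in the case of Cacna2d1 and Cacna2d2. Cacna2d1 was at 1.25, 0.32 and 0.25 in DMH, 1.45, 1.16 and 1.37 in VMH and -0.08 and -0.12 in Arc. Cacna2d3 was at -0.56, -2.29 and -1.66 in DMH, -0.82, -1.06 and -0.78 in VMH and -2.85 and -2.83 in Arc. For both genes all VMH samples lay above both Arc samples, by 1.43 ± 0.33 and 1.95 ± 0.45 (SE), with adjusted p of 0.105 and 0.111 by limma. The further probe of Cacna2d1 gave 1.37 for the same difference. Cacna2d2 ran the other way, at 5.26, 5.54 and 5.33 in DMH, 5.55, 5.04 and 5.14 in VMH and 6.02 and 5.87 in Arc, with Arc above all others by 0.63 ± 0.21 (SE; adjusted p = 0.210 by limma). Cacna2d4 was well above background on 1 of 3 DMH arrays and on all VMH and Arc arrays, and its DMH values were -5.05, -4.94 and -2.57. No difference is given against DMH, where the gene was called only when DMH replicate 3, the highest of these values, was left out.

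DMH replicate 1 stood apart from the other DMH samples for several of these genes. It was nearer to the VMH samples than the other DMH samples were for Cacna2d1, Cacna2d3 and Scn2b. Without it, VMH against Arc called 3 channel genes in place of 1, adding Cacna2d1 (adjusted p = 0.0340 by limma) and Cacna2d3 (adjusted p = 0.0332 by limma), and the SE of these differences fell to 0.18 and 0.24. The VMH markers in that sample summed to 5.10, the lowest of the DMH samples. Its array had the highest 75th percentile of signal of all arrays, 3042, where the others ran from 1806 to 2319. It also had the most probes well above background (78.7%). Why the sample stood apart was not tested.

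The Cacnb genes encode cytoplasmic subunits that traffic calcium channels and set their inactivation. None was called. Cacnb3 was at 0.47, 0.91 and 0.36 in DMH, 1.09, 1.22 and 1.23 in VMH and 0.42 and 1.77 in Arc, and DMH lay 0.56 below the mean of the others (adjusted p = 0.417 by limma). Cacnb1 was 0.29 higher in VMH (adjusted p = 0.701 by limma). Cacnb2 was at -1.70, 0.44 and -1.26 in DMH, -0.64, 0.98 and 0.01 in VMH and -0.89 and 1.32 in Arc. Replicate 2 was its highest sample in each nucleus, as it was for Cacna1c, and DMH lay 1.01 below the mean of the others (adjusted p = 0.504 by limma). Its brightest probes are close in level, so that without DMH replicate 2, VMH replicate 2 or Arc replicate 2 another probe became the brightest and gave 0.26, 0.08 and -0.03. With the reported probe held, leaving out 1 array gave -1.65 to -0.45. The probes of Cacnb2 disagreed: VMH against Arc was -0.10 for the brightest, and 1.30 and -0.71 for the further probes, none past the threshold.

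Of the HCN genes, Hcn2 and Hcn3 were tested. Hcn2 was at 3.61, 4.12 and 3.96 in DMH, 3.82, 4.29 and 4.41 in VMH and 4.13 and 4.47 in Arc, with DMH 0.34 below the mean of the others (adjusted p = 0.479 by limma). Hcn3 was at -0.68, -0.61 and -1.41 in DMH, -1.06, -0.33 and -0.63 in VMH and -0.77 and -1.09 in Arc, where the nuclei overlap. Hcn4, the pacemaker form of the heart and thalamus, was not well above background on any of the 8 arrays and was not tested.

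**Figure D3:**
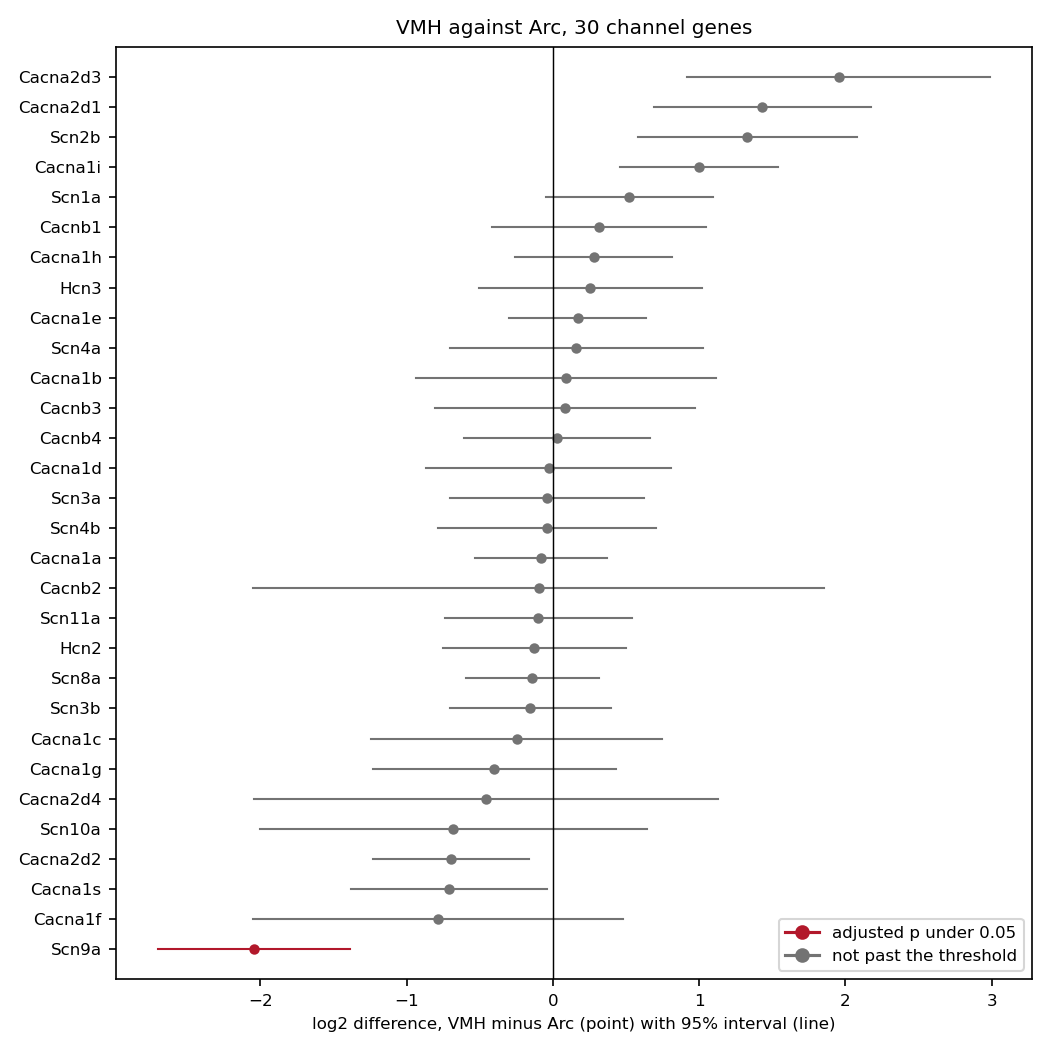
Log2 difference of VMH minus Arc (points) with 95% intervals from limma (lines) for the 30 channel genes tested, sorted by difference. Scn9a at -2.04 is the gene with an adjusted p under 0.05 (red). Scn10a passed the filter through Arc alone, so its difference is partly set by the filter.

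Over the group, the channel genes were mostly lower in DMH, as counts and medians with no test. The counts include Scn10a and Cacna2d4, which passed the filter only through nuclei other than DMH, so that their low place in DMH is partly set by the filter. Scn10a passed through Arc alone, so its high place in Arc, also against VMH, is partly set by the filter too. In VMH against Arc, 13 of 30 differences were positive and their median was -0.04, beside -0.03 over all genes tested. In VMH against the mean of the others, 23 of 30 were positive with a median of 0.15, beside 0.01 over all genes, and in DMH against VMH 5 of 30 were positive with a median of -0.30, beside -0.04. In DMH against the mean of the others 5 of 30 were positive with a median of -0.24, beside -0.04, and in DMH against Arc 8 of 30 with a median of -0.24, beside -0.05. Arc against the mean of the others had 20 of 30 positive with a median of 0.17, beside 0.04. The samples of VMH and Arc did not overlap for 11 of 30 genes, or 36.7%, where this held for 34.8% of all genes. The samples of DMH and Arc did not overlap for 15 of 30, or 50%, beside 33.4%. DMH against VMH had 7 of 30 genes without overlap, or 23.3%, beside 21.6%, and called none (background 1.23%), and DMH against Arc also called none (background 0.419%). At an unadjusted p under 0.05, the counts were 6 channel genes for DMH against VMH and 7 for DMH against Arc, where limma's test called 13.2% and 16.6% of all genes at that level. For VMH against Arc the count was 7, beside 14.2% of all genes. Against the mean of the others it was 1 of 30 for DMH, 7 for VMH and 6 for Arc, beside 16.3%, 13.1% and 15.7%.

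Several of the brightest channel probes hold simple repeats. A repeat score was computed for every probe from how often its words of 3 bases recur, and probes above the 95th percentile of all probes are called repetitive here. Repetitive probes had a median level of -0.21, against -2.02 for all probes, and made up 22.6% of the brightest 5% of probes. Among the 52 channel probes 7 were repetitive, and for 6 of them the repetitive probe was the brightest kept probe of its gene: Scn8a, Scn3b, Cacna2d2, Hcn2, Cacnb4 and Cacna1a. The stretches below, of 30 bases each, show the repeat of 4 of these probes, and that of Cacna1h, which scored just under the limit and was included after its signal was seen. Capitals mark a run that repeats with a period of at most 5 bases:
Scn8a: ggtgtgcacatgtaTGTGTGTGTGTGTGTG
Cacna2d2: tgtgtcctgtgggggcGTGTGTGTaactgt
Hcn2: ccccccatcgccctgcgCCCACCCCcatcg
Cacnb4: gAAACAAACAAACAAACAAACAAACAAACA
Cacna1h: caaagctaAGGGGAGGGGAGGGGcaaagca

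The probes of Scn8a, Scn3b and Cacna2d2 averaged 6.80, 6.53 and 5.47 over the 8 arrays. How much of this signal comes from other transcripts with the same repeat was not tested. Microglial markers showed the same feature: the summed signal of 12 such markers was 146 to 187 in DMH, 190 to 230 in VMH and 247 to 281 in Arc, and the probes of Itgam, Siglech and Csf1r, which had the highest signal among them, all scored above the 95th percentile. The other 9 summed to 4.96 to 6.63 in DMH, 3.33 to 4.70 in VMH and 6.53 to 7.84 in Arc.

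**Figure D4:**
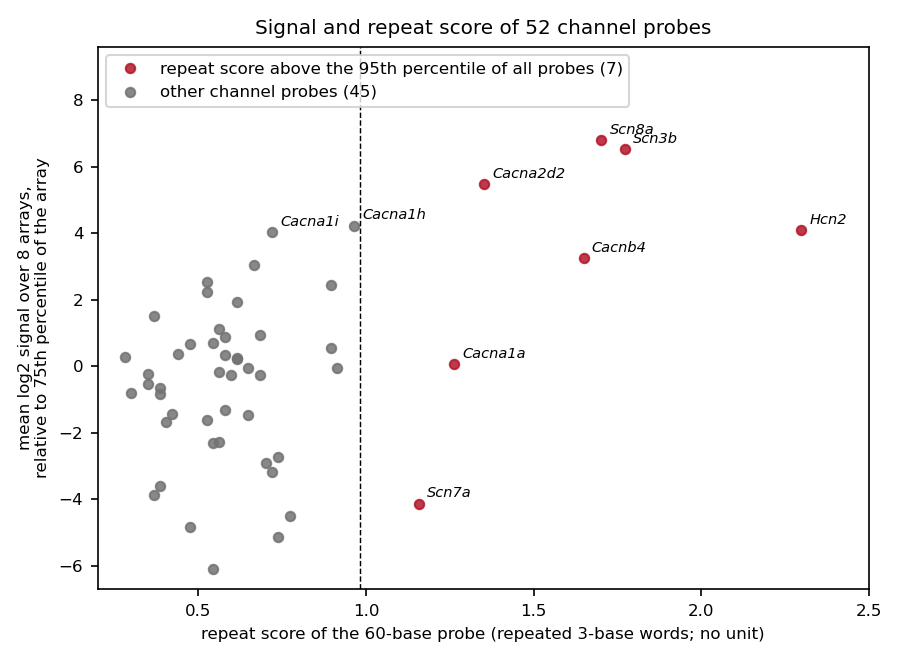
Mean log2 signal over the 8 arrays of each of the 52 channel probes (vertical axis, relative to the 75th percentile of the array) against the repeat score of the probe (horizontal axis, no unit). The dashed line is the 95th percentile of the score over all probes, and the 7 probes to its right include those of Scn8a, Scn3b and Cacna2d2, at 6.80, 6.53 and 5.47.

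For 4 of these genes, Scn8a, Hcn2, Cacna2d2 and Cacna1a, a further kept probe was not repetitive. In all 4 it spread the means of the nuclei more widely. For Cacna1a it spanned 0.96 where the repetitive probe spanned 0.26, but its samples scattered, with an SD of 0.68 in DMH and 0.88 in Arc. Where neither probe was repetitive, the further probe spanned more for some genes, such as Cacna1d (0.63 against 0.35). For others it spanned less, such as Cacna1g (0.40 against 0.83). Whether the repeats narrow the differences was not tested. The further probe of Scn8a, a main sodium channel of the axon initial segment, reads as follows and is shown beside the repeat above:
Scn8a, further probe: acagcaagcccaagccaaacagtgacctgg
It was at 0.81, 1.84 and 1.07 in DMH, 2.09, 2.01 and 2.34 in VMH and 0.59 and 1.24 in Arc, with all VMH samples above all others. VMH lay 1.07 ± 0.29 (SE) above their mean (adjusted p = 0.171 over all probes by limma), where the repetitive probe gave 0.03.

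The further Hcn2 probe was at -0.30, -1.08 and -0.56 in DMH, 0.31, 0.50 and 0.80 in VMH and -0.71 and -0.37 in Arc. VMH again lay above all others, by 1.13 ± 0.24 (SE; adjusted p = 0.0918 by limma), where the repetitive probe gave 0.08. The further Cacna2d2 probe was at -0.07, -0.28 and 0.06 in DMH, -0.28, -1.02 and -0.41 in VMH and 0.98 and 0.69 in Arc. VMH lay 1.41 ± 0.28 (SE) below Arc (adjusted p = 0.0851 by limma), where the repetitive probe gave -0.70, in the same direction. None of these passed the threshold. Of all 17 further kept probes of the channel genes, 11 had the same sign as the brightest probe for VMH against Arc. Taking the brightest probe among those that are not repetitive, a choice made after seeing the data, left 28 channel genes tested and the same calls, those of Scn9a.

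**Figure D5:**
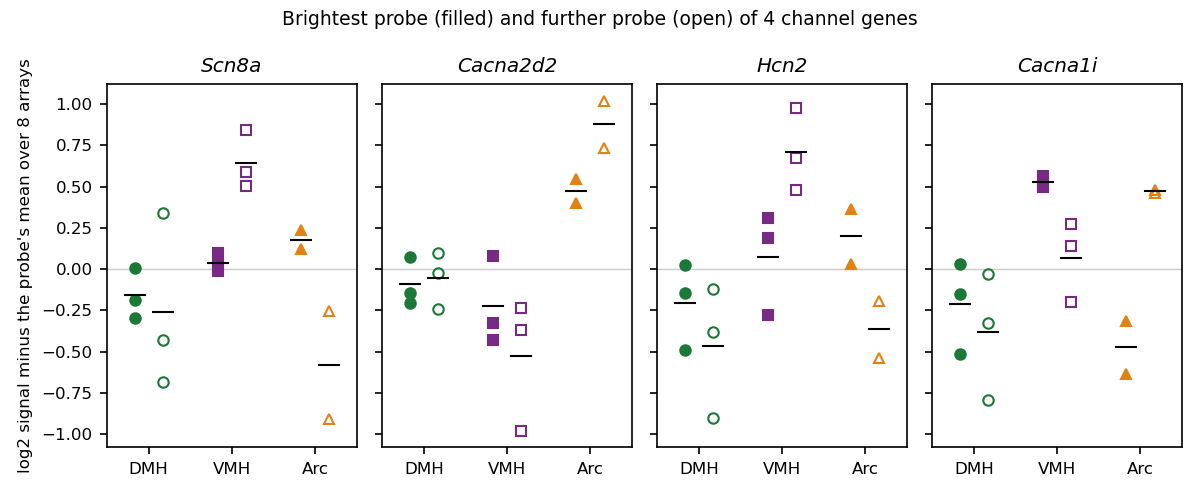
Log2 signal minus the mean of the probe over 8 arrays, for the brightest probe (filled) and a further kept probe (open) of Scn8a, Cacna2d2, Hcn2 and Cacna1i, by nucleus, with a point for each array and a line at the mean. The open points of Scn8a and Hcn2 lie highest in VMH, the filled ones spread less, and for Cacna1i the probes order VMH and Arc differently.

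Proteins that bind these channels were read from the same fit. Of 39 listed partners 36 were tested, and 3 were called in at least 1 comparison, or 8.33%, beside 2.24% of all genes: Stac2, Cabp1 and Cacng5. The list was drawn up with earlier results of these data known, so the share called is not independent of them. Stac2, an adaptor of L-type calcium channels, was at -3.35, -4.60 and -3.21 in DMH, -1.40, 0.11 and -0.49 in VMH and -3.71 and -3.61 in Arc, and was well above background on 7 of 8 arrays. It was higher in VMH than the mean of the others by 3.10 (adjusted p = 0.0184 by limma). Cabp1, a calcium sensor related to calmodulin that binds calcium channels, was at -0.89, -0.75 and -0.96 in DMH, 0.91, 0.47 and 0.68 in VMH and -1.08 and -0.45 in Arc. It was also higher in VMH, by 1.50 (adjusted p = 0.0184 by limma).

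Cacng5, a member of the calcium channel gamma family that acts mainly on AMPA receptors, was higher in Arc. It was at -1.84, -2.39 and -1.70 in DMH, -2.61, -2.09 and -2.01 in VMH and 0.16 and 0.35 in Arc, without overlap, and Arc exceeded the mean of the others by 2.36 (adjusted p = 0.0146 by limma). With the replicate number as a block, none of the 3 partners was past the threshold, and without VMH replicate 2 or 3 only Cacng5 was. By comparison, VMH against the mean of the others called all 3, or 8.33% beside 1.34% of all genes, and Arc against the mean of the others called 1, or 2.78% beside 0.613%. DMH against the mean of the others called none (background 0.842%).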

How the data were processed

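The authors' deposited files are scanner output of 8 arrays of 1 colour (Cy5), with a red intensity for each spot. Per the file headers, Agilent Feature Extraction (version 11.5.1.1) had subtracted the background and removed spatial trends from these deposited intensities. Flags for spots well above background and outlier spots are those deposited. Another deposited table, with 8 columns, was not used.

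Log2 of the processed intensity minus the 75th percentile of each array was taken over 59305 spots, and outlier spots were left out. The brightest probe well above background on all arrays of at least 1 nucleus stood for each of 27425 genes. The fit (limma 3.58.1, lmFit and eBayes) took 1 mean for each nucleus and used all 8 arrays, with 5 residual degrees of freedom. R 4.3.3 was used, and data.table (version 1.17.8). All 6 comparisons were made, each with Benjamini-Hochberg adjustment over all genes and a threshold of 0.05. Single probes were fitted the same way. The model was tested on simulated data. All arrays lie on 1 slide from 1 scan, so of these only the slide row was tried as a block. Other alternatives were normexp correction (offset 50), quantile scaling, other percentiles and filters, averaging a gene's probes, robust and trended priors, array weights, the replicate number as a block, leaving out each array, and, added after seeing the data, leaving out repetitive probes and leaving out each array with filter and probes held.

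Named genes are all channel genes called in any comparison, the 3 of smallest p in each family otherwise, and partners past the threshold. Results for 3 of the genes the rule names, and 1 probe sequence, are not reported here. Genes shown for repetitive probes were chosen after their values were seen. The members and lists were chosen with earlier results of these data known. Probe positions (mm9) come from the files; whether a probe lies in an exon or UTR was not analysed here. The number of arrays limits the precision.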

Additional observations from a re-analysis of the deposited data

How the results depend on the processing

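Each comparison was repeated under 20 alternatives, of which 8 left out 1 array. No channel gene called in the reported analysis changed direction. For Arc against the mean of the others the reported 1 channel gene, Scn9a, became 0 without a filter on dim probes, with a trended prior, with array weights, with the replicate number as a block and with a slide row block; leaving out 1 array gave 0 to 1. For VMH against the mean of the others, 1 became 2 (Cacna1i added) under normexp correction and a trended prior and 0 without a filter and with the slide row block, and leaving out 1 array gave 0 to 2. VMH against Arc gave 2 (Cacna1i added) under normexp correction and a trended prior, 0 with the slide row block and 0 to 3 when 1 array was left out. DMH against Arc and DMH against VMH gave 0 in all 20, and DMH against the mean of the others gave 0 to 1. The further probes, with 0 calls reported, gave 2 under normexp correction. The partner list, with 3 called, gave 0 with the replicate block and 1 to 3 when 1 array was left out. Leaving out an array also redid the filter and the choice of probe. With both held as reported, a setting chosen after seeing the data, the arrays left out gave 0 to 3 channel genes for VMH against Arc and for VMH against the mean of the others, 0 to 1 for Arc and for DMH against the mean of the others, and 1 to 3 partners. Cacnb2 in DMH against the mean of the others was at 0.26 without DMH replicate 2 and 0.08 without VMH replicate 2, within a range of -1.56 to 0.26, because another probe became the brightest; with the probe held it did not reverse (-1.65 to -0.45). Scn3b in DMH against Arc reversed to 0.11 under quantile normalization. Where a cause is not named, the cause was not tested. The labels do not say what samples with the same replicate number share, and the reported fit left the numbers out. Deviations of samples with the same number correlated at 0.0723 to 0.185 (7 pairs). Those with different numbers correlated at -0.126 to 0.0153 (14 pairs), and the ranges did not overlap. Deviations were taken from the mean of each nucleus, so the pairs are not independent and this gap is partly built in. DMH replicate 1, for example, correlated at 0.0723 with Arc replicate 1 and necessarily at -0.0723 with Arc replicate 2. The samples may be paired by number, which these pairs cannot settle. The reported p-values ignore such pairing, and what the samples share was not tested. With the replicate block, VMH against Arc still called 1 channel gene (Scn9a, adjusted p 0.0382 by limma), and Scn9a in Arc against the mean of the others had 0.0610. Over all genes the calls ranged from 74 to 408 for VMH against Arc and from 40 to 289 for Arc against the mean of the others. No alternative moved the median of all genes by more than 0.0655. Leaving out 1 Arc array leaves a lone sample, assumed to vary like the other nuclei. Dim probes such as Scn10a, Cacna2d4 and Scn7a limit what can be read for these genes.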

Other observations

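Scn2a1, the array's name for the gene of a main sodium channel of axons, lies outside the gene names used above. Its brightest probe was at 2.04, 0.46 and 0.81 in DMH, 1.57, 1.33 and 1.83 in VMH and 0.56 and 0.31 in Arc. VMH lay 1.14 above Arc there (adjusted p = 0.306 by limma). DMH replicate 1 was the highest of the 8 samples, as it lay nearest to VMH for Cacna2d1, Cacna2d3 and Scn2b. The further probes of Scn2a1 disagreed. One also had DMH replicate 1 highest (0.14) and all VMH samples above Arc. Another was at -1.02, -0.93 and -1.57 in DMH, -1.36, -0.52 and 0.57 in VMH and 0.23 and -1.07 in Arc, where the nuclei overlap.

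Fgf13, an intracellular modulator of sodium channels, was at 0.69, 0.93 and 0.98 in DMH, -0.62, -0.68 and -2.04 in VMH and -1.70 and -0.42 in Arc. All DMH samples lay above all others, and the difference of 1.95 from their mean had an adjusted p of 0.0961 by limma. It was named after its values were seen.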
